A study of Sus scrofa with 24 samples.

Results

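The colon of sows fed high fibre together with N-carbamylglutamate was compared with the colon of sows fed the low-fibre reference diet, as 3 RNA sequencing libraries against 3 of the 24 libraries in the study. The low-fibre diet (LF) held 3.73% crude fibre and no N-carbamylglutamate (NCG). The combined diet (HN) held 7.46% crude fibre and 0.05% NCG, so the contrast carries both additions at once. Female pigs received their diet from the day of breeding, at 100 sows per diet, and the samples come from gestation day 114. The other colon groups, 3 libraries each, are high fibre without NCG (HF) and low fibre with NCG (LN), and the ileum was sampled for the same 4 diets. Breed, age and parity are not given in the labels. Whether each library stands for its own sow is not in the labels, and the p-values below measure variation among libraries only, which may be technical.

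Dietary fibre that escapes digestion in the small intestine is fermented by bacteria in the large intestine to short-chain fatty acids, of which butyrate is the main fuel of colonocytes, the absorptive cells of the colon. NCG stands in for N-acetylglutamate, which switches on carbamoyl phosphate synthetase 1 (CPS1), and is fed to raise arginine synthesis, a pathway that in the pig gut belongs mainly to the enterocytes of the small intestine. The colon wall holds an epithelium with absorptive, goblet and endocrine cells, a lamina propria rich in plasma cells and T cells, and a thick coat of smooth muscle with fat and vessels on its outer side. In RNA from whole tissue, fewer cells of a type and less RNA per cell cannot be told apart.

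The 6 libraries differed widely in the levels of marker genes for the layers of the wall. Markers of smooth muscle, 18 genes with myosin, actin and desmin among them, summed to 112890, 150730 and 38953 normalised read counts scaled to library size (CPM) in LF 1, LF 2 and LF 3, and to 136330, 19441 and 2321 in HN 1, HN 2 and HN 3. The 24 tested markers of colonocytes and colon position, called colonocyte markers below, summed to 1148, 270 and 3669 CPM in LF and to 459, 2582 and 6522 in HN. LF 2 and HN 1 thus had high muscle and low colonocyte markers, HN 3 was the reverse, and the groups overlapped. Across genes, log2 CPM of LF 2 and HN 1 correlated at 0.961, against 0.714 between HN 1 and HN 3 of the same diet and 0.717 between LF 2 and HN 3. Total counts lay between 14843272 and 18575695 per library, between 16309 and 16770 genes were detected, and mitochondrially encoded genes took 4.96% to 9.70% of the counts. HOXA13, a homeobox gene of the hindgut, had 749 to 1109 counts in the 6 colon libraries, HN 1 included with 900, and at most 1 count in each of the ileum libraries.

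**Figure D1:**
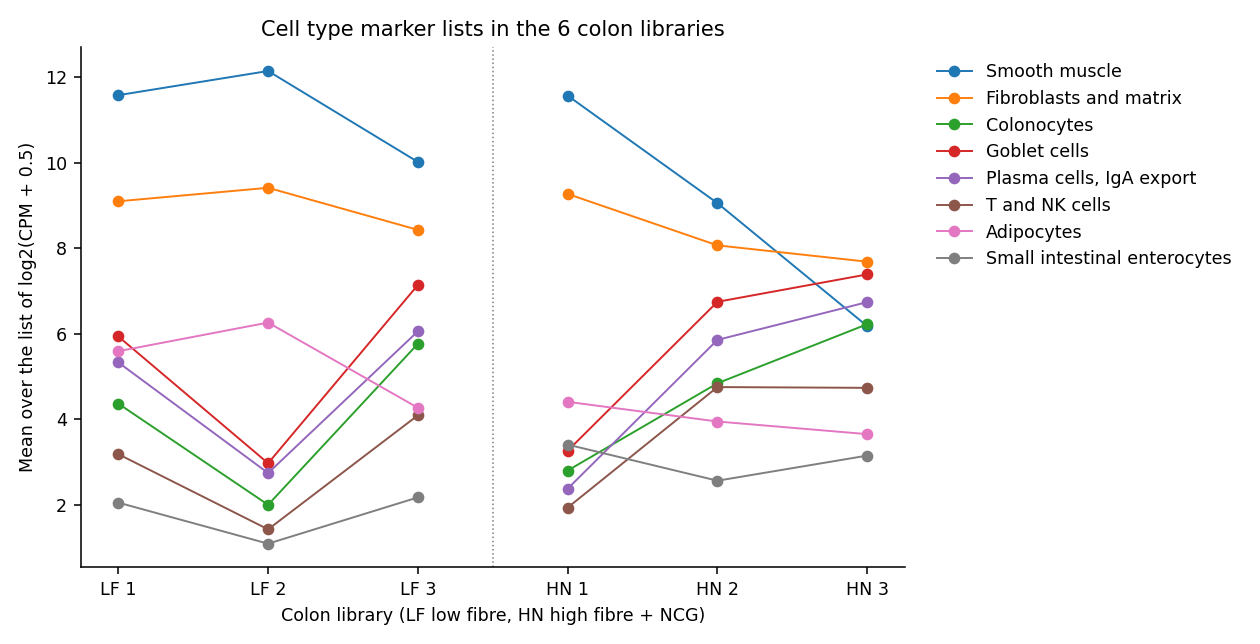
Mean of log2(CPM + 0.5) over the tested members of 8 cell type marker lists (vertical axis) in the 3 LF and 3 HN colon libraries (horizontal axis); each point is 1 library, and the lines only join the points of a list, since replicates have no order. The colonocyte and goblet cell lists move opposite to the smooth muscle list between libraries of the same diet, and the enterocyte list does not do so in HN. LF 2 and HN 1 have like profiles apart from the enterocyte and fat lists.

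HN 1 also had counts for genes that are enriched in the ileum. Of 473 genes (3.02% of those tested over both tissues) that were higher in ileum than in colon in the HF and LN libraries, past a log2 difference of 2 and an edgeR adjusted p of 0.05, 291 had a mean below 2 CPM in those colon libraries. These 291 genes summed to 537 CPM in HN 1, where 89 of them reached 1 CPM, and to between 101 and 151 CPM in each of the other 11 colon libraries. The sum in HN 1 was 2.44% of the mean of the ileum HF and LN libraries. Ornithine transcarbamylase (OTC), a urea cycle enzyme of the small intestine, had 103 counts in HN 1, 4 in HN 2, 3 in HN 3 and at most 1 in an LF library. The apolipoprotein APOA4 had 84 counts in HN 1, none in HN 2 or HN 3, and 2, 1 and 12 in LF. The brush border enzyme MGAM, which splits starch products, had 600 counts in HN 1, 24 and 38 in HN 2 and HN 3, and 29, 14 and 20 in LF. For OTC, APOA4 and MGAM the height of HN therefore rested on HN 1. Results below use all 3 HN libraries unless they say otherwise.

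No gene passed an adjusted p of 0.05 in HN against LF (edgeR quasi-likelihood test with Benjamini-Hochberg adjustment over 15075 genes, 0% called in either direction, smallest adjusted p 0.371). At an unadjusted p under 0.05 there were 1348 genes, 8.94% of those tested, where 754 would be counted with no difference at all. Of these, 724 were higher in HN (4.80%) and 624 lower (4.14%). DESeq2 called 191 of 14956 genes, 1.28%, with 113 higher (0.756%) and 78 lower (0.522%), and limma voom called 0 with 1367 at an unadjusted p under 0.05. Without HN 1 edgeR still called 0 of 15244 genes, while the number at an unadjusted p under 0.05 was 3527 (23.1%, with 9.88% higher and 13.3% lower) and the smallest adjusted p was 0.130. Leaving out HN 2 gave 633 such genes. The square root of the common dispersion, the typical relative spread between libraries of a diet, was 0.472. Library by library, 638 genes (4.23%) lay higher in all 3 HN libraries than in any LF library, and 846 (5.61%) lay lower in all 3. The median log2 difference of all tested genes was 0.05, and 53.9% lay above 0. The share above 0 was 50.7% without HN 1.

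The genes with the smallest p above 0 were PPP1R9A, MAP2K6, LCORL, RHOF and ZSWIM6, and HN 1 lay with HN 2 and HN 3 in each. PPP1R9A encodes neurabin, which ties protein phosphatase 1 to actin (chromosome 9, bases 74635285 to 74944050 of Sscrofa11.1). It had 22.8, 28.1 and 23.2 CPM in LF 1 to LF 3 and 50.2, 83.8 and 66.3 CPM in HN 1 to HN 3, a log2 difference of 1.43 ± 0.22 (SE, edgeR adjusted p = 0.371, n = 3 and 3). The lowest HN library, HN 1, lay well above the highest LF library, and without HN 1 the difference was 1.59. MAP2K6, the kinase that activates p38 (chromosome 12, bases 10891445 to 11018617), had 13.2, 11 and 12.2 CPM in LF and 33.6, 43.5 and 39.0 CPM in HN, a log2 difference of 1.67 ± 0.25. The spread inside each diet was small against the gap, and the value without HN 1 was 1.76. LCORL, a transcriptional regulator tied to body size, had 10.5, 15.6 and 13.0 CPM in LF and 33.7, 62.1 and 32.2 CPM in HN, a log2 difference of 1.71 ± 0.28. HN 2 stood highest here, and HN 1 and HN 3 were close to each other. RHOF, a small GTPase of filopodia, had 31.9, 23.6 and 26.4 CPM in LF and 44.8, 63.5 and 56.4 CPM in HN. ZSWIM6 had 40.6, 34.7 and 46.7 CPM in LF and 71.8, 101 and 71.3 CPM in HN, with no overlap. With DESeq2 these 5 genes had adjusted p between 2.16e-06 and 6.89e-05.

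On the lower side RCN1, MEDAG, EFHD1 and FABP5 were among the 5 genes with the smallest p. RCN1, a calcium-binding protein of the endoplasmic reticulum, lay in tight groups (chromosome 2, bases 28696528 to 28714083), with 278, 258 and 260 CPM in LF and 139, 136 and 146 CPM in HN (log2 difference -0.92 ± 0.16, and -0.92 without HN 1). HN 1, with high muscle markers, and HN 3, with low ones, had almost the same RCN1 level. RCN1 was named for its small p, which favours tight groups, and the part of muscle in its difference was not tested. MEDAG, a gene of fat cell differentiation in the mesentery, had 73.9, 47.3 and 54.5 CPM in LF and 19.9, 10.5 and 8.42 CPM in HN, a log2 difference of -2.18 ± 0.41. EFHD1, a mitochondrial calcium sensor, had 12.8, 15.9 and 6.01 CPM in LF and 3.75, 2.999 and 2.52 CPM in HN. FABP5, a fatty acid carrier, had 131, 163 and 110 CPM in LF and 71.1, 78.2 and 74.3 CPM in HN. These 4 genes had an edgeR adjusted p of 0.389, and DESeq2 adjusted p between 6.6e-06 and 0.00127.

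**Figure D2:**
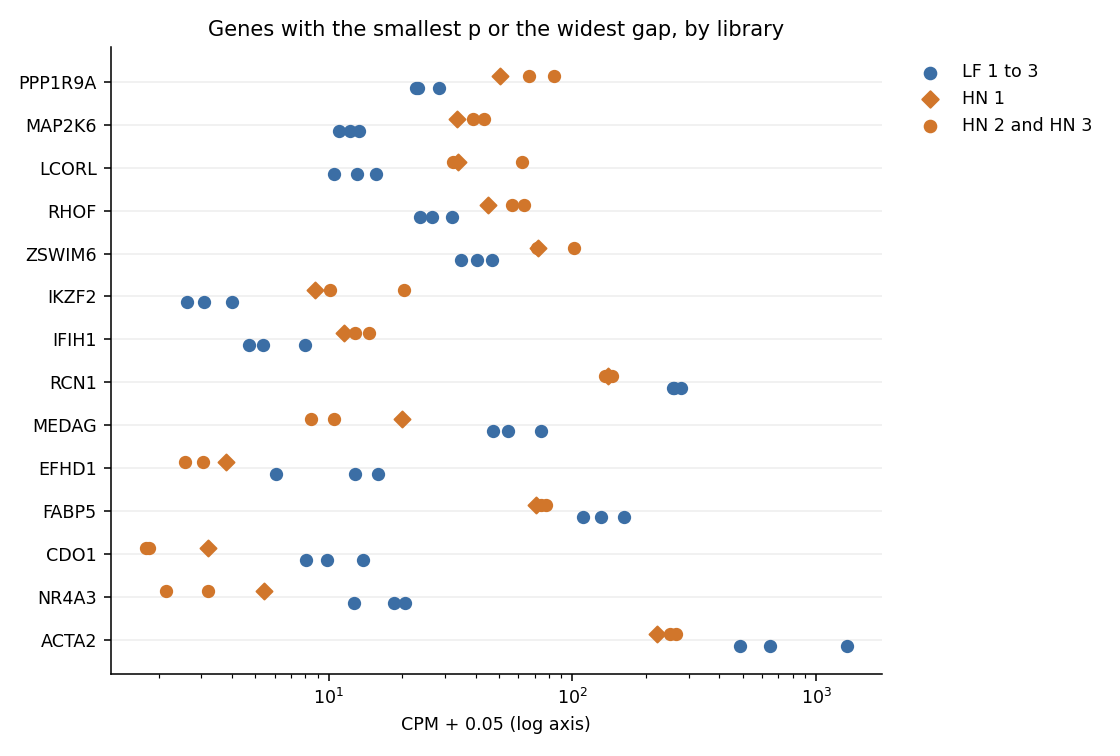
CPM plus 0.05 on a log axis for 14 genes with the smallest p or the widest gap between diets, or (IFIH1, ACTA2) the smallest p of a list; blue points are the 3 LF libraries, orange points HN 2 and HN 3, and the orange diamond HN 1. In each of the 14 genes the orange symbols lie on 1 side of the blue ones, which choice by small p or wide gap favours. Of all tested genes 4.23% lay higher and 5.61% lower without overlap, and no gene passed an adjusted p of 0.05 with edgeR.

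Further genes were separated by a wide gap between the diets. IKZF2, the lymphocyte transcription factor Helios, had 3.03, 3.95 and 2.58 CPM in LF and 8.76, 20.2 and 10.1 CPM in HN (log2 difference 2.03 ± 0.41). CDO1, which starts the breakdown of cysteine towards taurine, had 9.77, 13.7 and 8.05 CPM in LF and 3.14, 1.79 and 1.72 CPM in HN. NR4A3, a nuclear receptor of the immediate early response, had 18.4, 20.5 and 12.6 CPM in LF and 5.35, 2.11 and 3.13 CPM in HN. The rule of the widest gap admits only genes with every HN library on 1 side of LF. The place of HN 1 beside the other HN libraries was therefore fixed by selection for these 3 genes. Without HN 1 the smallest p above 0 went to PPP1R9A, STK17B, FSD1L, RSC1A1 and ASPRV1, and below 0 AQP1, WFDC1, MEDAG and PROCR were among the 5 with the smallest p. For 2 of these HN 1 lay inside the LF range. The kinase gene STK17B had 18.6, 22.4 and 34.4 CPM in LF, 28.9 CPM in HN 1, and 110 and 90.3 CPM in HN 2 and HN 3. The water channel AQP1 had 191, 244 and 200 CPM in LF, 206 CPM in HN 1, and 85.6 and 81.7 CPM in HN 2 and HN 3.

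Medians over gene lists depended on single libraries. Without HN 1 the median changed sign in 7 of 34 lists and moved by over 1.5 times with its sign kept in another 18. Leaving out HN 3 changed the sign in 11 lists, LF 2 in 5 and LF 3 in 3, and a further 15, 21 and 20 lists moved by over 1.5 times. The smooth muscle marker mean as a covariate changed the sign in 18 lists, and the ileum marker mean in 20. The list values below describe these 6 libraries, and edgeR called 0 members of any list.

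Enterocyte genes had the highest median of the 34 lists with all 6 libraries, but not without HN 1. Of 32 tested genes of small intestinal enterocytes and bile acid handling, 0 passed the adjusted threshold, 30 had a log2 difference above 0, 10 lay higher in every HN library than in any LF library (4.23% of all genes did), and the median was 2.20. Without HN 1 the median was 0.95, below those of epithelial defence (1.89), T and NK cells (1.63), B cells (1.38) and colonocytes (1.35). With the ileum marker mean as a covariate the enterocyte median was -0.14. That covariate is the mean of these same genes, so a value near 0 follows from its construction. FABP2, a fatty acid carrier with no count in LF, does not move the median when set at its lower bound. APOB, the protein core of chylomicrons, shows the dependence on HN 1: it had 7, 2 and 5 counts in LF, 718 in HN 1, and 11 and 28 in HN 2 and HN 3. FABP2 had 273 counts in HN 1, 4 in HN 2, 90 in HN 3 and none in LF.

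For 3 brush border hydrolases of the same list, ANPEP, SI and MEP1B, the size of the difference did not rest on HN 1, unlike that of MGAM. All 3 were named for the widest gap, so that HN 2 and HN 3 lay above every LF library follows from the selection. ANPEP, aminopeptidase N, which trims peptides at the brush border (chromosome 7, bases 55351081 to 55373856), had 12.2, 3.48 and 12.8 CPM in LF and 80.1, 63.1 and 46.6 CPM in HN. The log2 difference was 2.74 ± 0.79 with HN 1 and 2.52 without it. SI, sucrase-isomaltase, had 5.11, 0.477 and 2.74 CPM in LF and 64.7, 53.9 and 12.5 CPM in HN, a log2 difference of 3.97 ± 1.0, or 3.55 without HN 1. MEP1B, the beta subunit of the metalloprotease meprin, had 3.31, 0.477 and 4.29 CPM in LF and 9.56, 34.9 and 14.9 CPM in HN (2.86 ± 0.80, and 3.17 without HN 1). For MEP1B, HN 1 was the lowest of the 3 HN libraries. These 3 genes had edgeR adjusted p of 0.389 to 0.437 and DESeq2 adjusted p of 0.00357 to 0.0259. Among the other members that did not overlap were FABP2, APOB, APOC3, CREB3L3, NAALADL1 and SLC15A1, each highest in HN 1. FABP6, a bile acid carrier of the ileum, had 3.93, 0.0681 and 2.52 CPM in LF, 0.0669 in HN 1, 0.510 in HN 2 and 15.8 in HN 3. In the ileum LF libraries it had 176275, 6 and 0 counts, so FABP6 does not tell ileum RNA from colon RNA in these data.

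**Figure D3:**
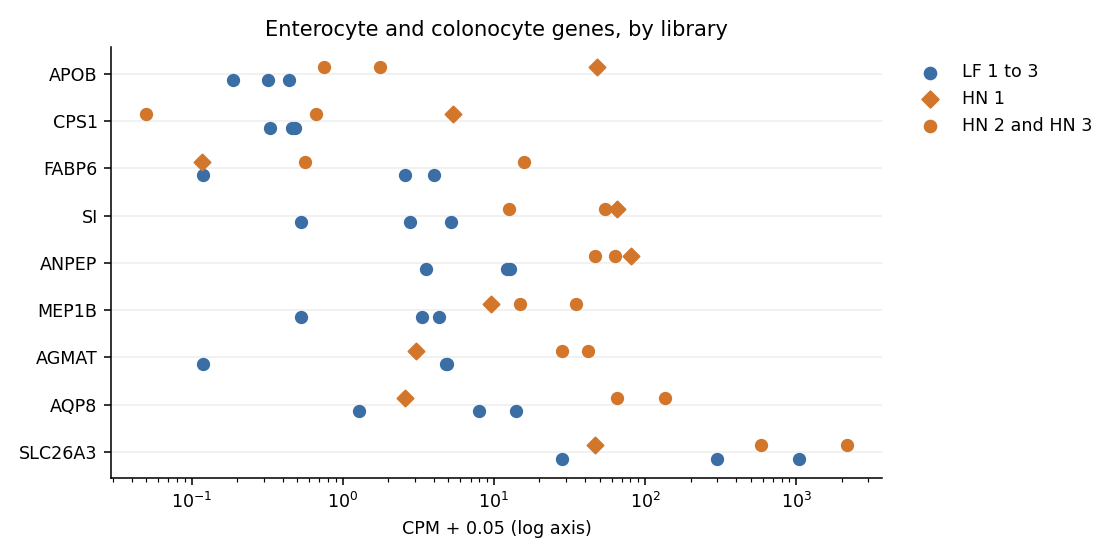
CPM plus 0.05 on a log axis for 9 genes of enterocytes and colonocytes; blue points are LF, orange points HN 2 and HN 3, and the orange diamond HN 1. HN 1 stands alone for APOB and CPS1, lies with the other HN libraries for SI, ANPEP and MEP1B, and lies with LF for AGMAT, AQP8 and SLC26A3.

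Colonocyte genes were high in HN 2 and HN 3 and low in HN 1, so the group overlapped with LF. Of 24 tested, 20 had a log2 difference above 0, with a median of 0.82 against 0.05 for all genes and 1.35 without HN 1. The median turned to -0.71 with the smooth muscle marker mean as a covariate and to -0.15 without HN 3. SLC26A3, the chloride-bicarbonate exchanger of surface colonocytes, had 301, 28.2 and 1042 CPM in LF and 46.5, 583 and 2155 CPM in HN. LF 2 and HN 1 were the low libraries in both diets. AQP8, a water channel of the same cells, had 13.9, 1.23 and 7.94 CPM in LF and 2.54, 65.0 and 135 CPM in HN, a log2 difference of 3.13 ± 1.27 (3.69 without HN 1). Here HN 2 and HN 3 exceeded every LF library, as 19.2% of all genes did in that direction, whereas HN 1 did not. The list also holds genes of colon position, among them HOXD13, a homeobox gene of the hindgut. HOXD13 was the only 1 of the 24 with non-overlapping groups, where 5.61% of all genes lay lower without overlap. It had 21.7, 20.4 and 17.3 CPM in LF and 15.4, 1.08 and 4.61 CPM in HN.

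Lists of other epithelial functions followed the same libraries. Goblet cell and mucus genes had a median of 0.47 (15 of 18 above 0), membrane mucins and junctions 0.47 (21 of 24), electrolyte and water transport 0.58 (20 of 24), and stem cell and crypt genes 0.35 (11 of 17), with 0 called in each. Without HN 1 these medians were 1.005, 1.004, 1.016 and 0.60, and with the smooth muscle covariate all 4 lay below 0. CLCA1, secreted with mucus by goblet cells, had 805, 43.9 and 1418 CPM in LF and 70.1, 3005 and 3411 CPM in HN. Genes of short-chain fatty acid uptake, sensing and use had a median of 0.26 (14 of 20 above 0), which was 0.46 without HN 1, -0.13 without HN 3 and -0.32 with the smooth muscle covariate. SLC16A1, the transporter MCT1 that carries butyrate, had 488, 281 and 1070 CPM in LF and 279, 987 and 1346 CPM in HN. Only SLC16A4, a related carrier at low level, did not overlap among these 20 genes, where 4.23% of all genes lay higher without overlap. It had 0.730, 1.16 and 0.537 CPM in LF and 1.87, 2.999 and 2.52 CPM in HN (log2 difference 1.61 ± 0.51). Receptors for lactate and short-chain fatty acids had low counts. HCAR1, the lactate receptor, had 40, 25 and 9 counts in LF and 6, 10 and 3 in HN, a log2 difference of -1.84 ± 0.62 (edgeR adjusted p = 0.483). The diets overlapped in LF 3 and HN 2. FFAR2, a receptor for short-chain fatty acids, had 8, 1 and 3 counts in LF and 2, 12 and 27 in HN, so that HN 3 was highest and the groups overlapped.

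Lists of B, plasma, T and NK cells and of epithelial defence also had medians above 0, and LF 2 and HN 1 had their lowest means of log2(CPM + 0.5). All 16 B cell genes and all 13 plasma cell genes had a log2 difference above 0, with medians of 0.84 and 0.63 (1.38 and 1.17 without HN 1). None of them had non-overlapping groups, where 4.23% of all genes lay higher without overlap. T and NK cell genes had a median of 1.13 (21 of 22 above 0) and 1.63 without HN 1. CD247, the zeta chain of the T cell receptor complex, had 30.03, 19.1 and 32.6 CPM in LF and 23.6, 70.6 and 82.0 CPM in HN. The T and NK cell median stayed above 0 with the smooth muscle covariate, at 0.18, where B cell and plasma cell genes gave -0.09 and -1.01. SLA-2, a classical class I antigen presentation gene of the pig, had 96.5, 20.8 and 141 CPM in LF and 31.8, 655 and 1330 CPM in HN. SLA genes are near-identical copies between which reads can be split, so this value is uncertain. Epithelial defence genes had a median of 1.33 (12 of 15 above 0), which was 1.89 without HN 1, -0.11 without HN 3 and 0.04 with the smooth muscle covariate. DUOX2, a peroxide-producing oxidase of that list, had 322 CPM in HN 3 against 25.0 to 67.0 CPM in the other 5 libraries. Macrophage and granulocyte markers had a median of -0.03 (0.18 without HN 1), and 2 of 18 lay lower without overlap (5.61% of all genes did). Of these 2, the scavenger receptor CD163 had 68.0, 97.8 and 117 CPM in LF and 49.2, 35.9 and 46.9 CPM in HN (log2 difference -1.10 ± 0.31).

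Muscle, fat and vessel genes lay below 0. All 18 smooth muscle genes had a log2 difference below 0, with a median of -0.87 that became -3.19 without HN 1 and 0.21 with the mean of these same markers as a covariate. DES, desmin, had 12177, 16013 and 4023 CPM in LF and 17287, 1640 and 83.8 CPM in HN, so that HN held both the highest and the lowest library. ACTA2, the actin of smooth muscle and myofibroblasts, had 646, 1333 and 487 CPM in LF and 223, 266 and 251 CPM in HN, a log2 difference of -1.74 ± 0.36. HN 1, with desmin above every LF library, had ACTA2 below every LF library. ACTC1, cardiac actin, had 122, 470 and 26.6 CPM in LF and 9.70, 6.89 and 0.184 CPM in HN.

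Of 15 adipocyte genes 14 lay below 0, with a median of -1.79 (-2.22 without HN 1 and -1.04 with the smooth muscle covariate). At an unadjusted p under 0.05, 8 were lower (4.14% of all genes were), and 3 (LIPE, GPD1 and THRSP) lay lower without overlap (5.61% of all genes did). FABP4, a fatty acid carrier of fat cells, had 234, 428 and 53.8 CPM in LF and 70.4, 48.7 and 21.4 CPM in HN. ADIPOQ, adiponectin, had 197, 164 and 42.3 CPM in LF and 55.1, 44.9 and 16.0 CPM in HN. LF 1 and LF 2 carried the high values, and LF 3 overlapped with HN. In its summed level the list ran from 862 to 2453 CPM in LF and from 614 to 752 CPM in HN, and its part in the differences of MEDAG, CDO1 or FABP5 was not tested. FASN, the fatty acid synthase of fat and liver, had 318, 893 and 289 CPM in LF and 49.4, 87.3 and 278 CPM in HN, while genes of cholesterol and fatty acid synthesis as a list had a median of -0.22, which changed sign to 0.05 without HN 1 and to 0.33 without LF 3. Of 15 endothelial genes 11 lay below 0, with a median of -0.39 (-0.50 without HN 1). PECAM1, an adhesion protein of endothelium, had 293, 308 and 209 CPM in LF and 165, 194 and 156 CPM in HN (log2 difference -0.65 ± 0.19). HBB, the beta chain of haemoglobin, named here after its values were seen, had 80.8, 33.8 and 180 CPM in LF and 2.21, 15.6 and 6.39 CPM in HN. This marker of blood lay lower in every HN library, and its part in the endothelial values was not tested.

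**Figure D4:**
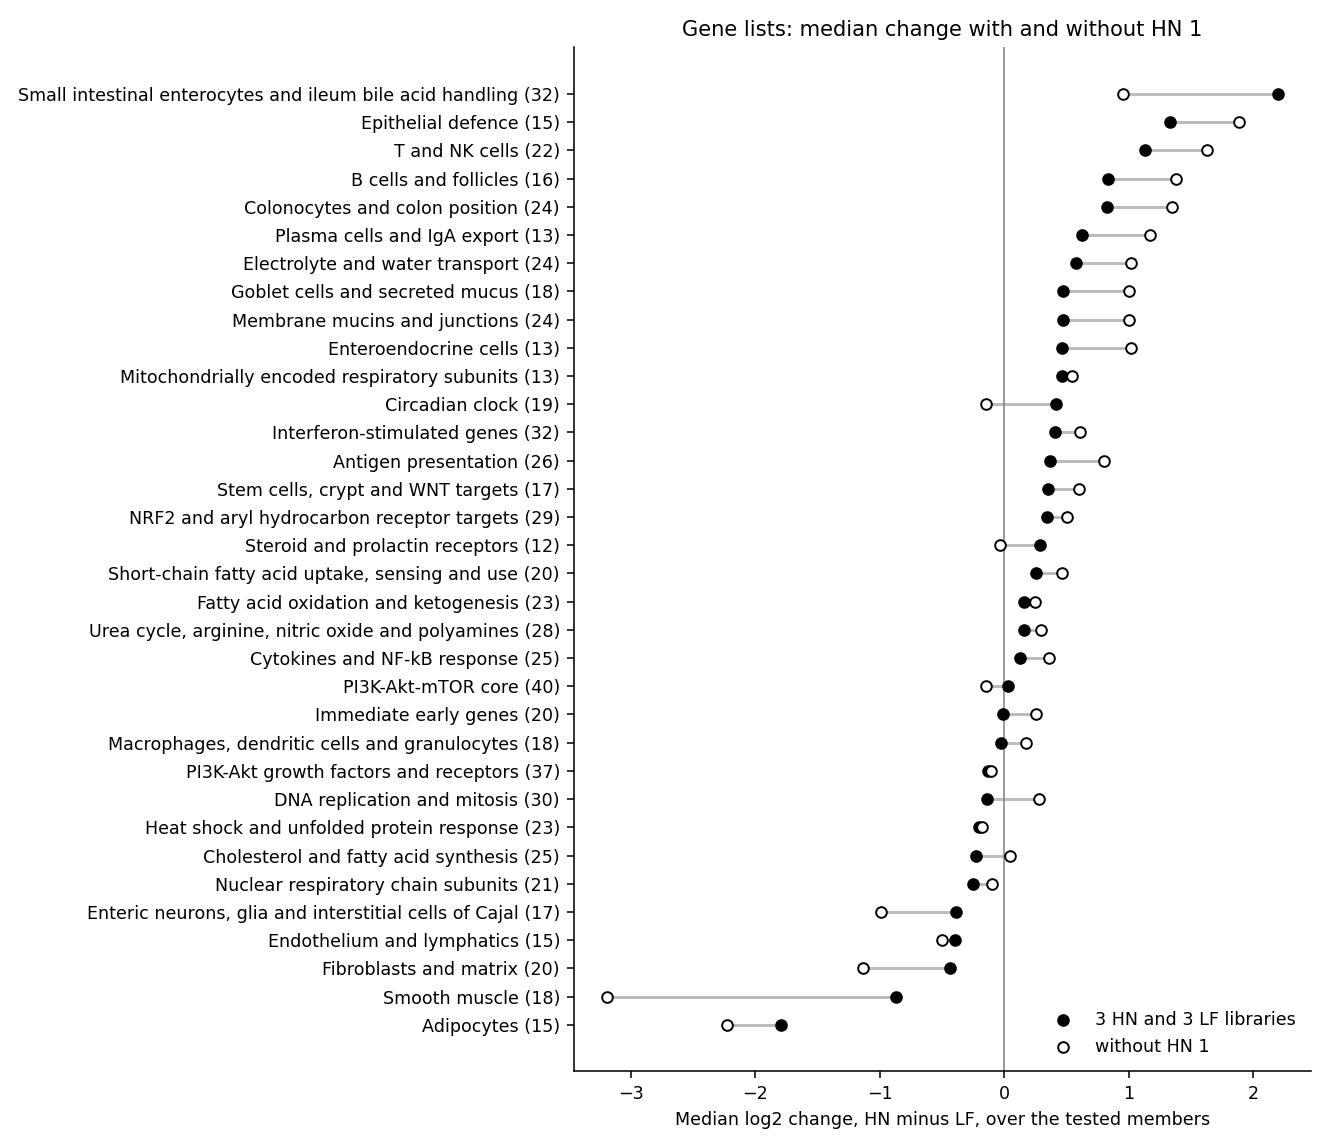
Median log2 difference (HN minus LF, horizontal axis) over the tested members of 34 gene lists (number tested in brackets), with all 6 libraries (filled) and without HN 1 (open). The enterocyte median moves from 2.20 to 0.95 and the smooth muscle median from -0.87 to -3.19 when HN 1 is left out, while lists such as the mitochondrially encoded subunits hardly move.

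In the nitrogen pathway that NCG addresses, CPS1 itself was near the detection limit in colon. It had 0.281, 0.409 and 0.429 CPM in LF and 5.28, 0 and 0.614 CPM in HN, so its fitted log2 difference of 2.37 ± 1.75 rested on HN 1 and became -0.26 without it. Genes of the urea cycle, arginine, nitric oxide and polyamines had a median of 0.16 (16 of 28 above 0), which was 0.29 without HN 1, -0.13 without HN 3 and -0.18 with the smooth muscle covariate. ASS1, which joins citrulline and aspartate on the way to arginine, had 44.9, 32.4 and 45.9 CPM in LF and 31.1, 24.1 and 93.8 CPM in HN. ARG2, the mitochondrial arginase, had 13.5, 8.52 and 23.4 CPM in LF and 10.7, 16.9 and 24.3 CPM in HN. NAGS, which makes N-acetylglutamate, had 2.41, 0.409 and 7.46 CPM in LF and 0.803, 6.57 and 7.62 CPM in HN. These 3 overlapped fully between the diets. Another 4 of the 28 had every HN library below LF, where 5.61% of all genes did, namely AMD1 and SMS of polyamine synthesis, OAT, and NOS3, the nitric oxide synthase of endothelium. AMD1 had 114, 186 and 187 CPM in LF and 74.8, 80.1 and 106 CPM in HN (log2 difference -0.90 ± 0.26). NOS3 had 15.6, 17.0 and 11.4 CPM in LF and 9.36, 7.08 and 5.53 CPM in HN (-0.999 ± 0.272). AGMAT, which can make the polyamine putrescine from agmatine, had 4.77, 0.0681 and 4.83 CPM in LF, 3.01 in HN 1, and 42.0 and 28.0 CPM in HN 2 and HN 3.

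Genes of the PI3K-Akt-mTOR core had a median of 0.03 (21 of 40 above 0), against 0.05 for all genes. Without HN 1 it was -0.14 (16 of 40 above 0), against 0.012 for all genes. AKT1 had 179, 183 and 185 CPM in LF and 138, 139 and 190 CPM in HN (log2 difference -0.23 ± 0.17). PIK3CA, the catalytic subunit alpha, had 17.2, 68.6 and 10.3 CPM in LF and 96.6, 32.9 and 14.5 CPM in HN. Its difference was 0.58 with all libraries and -0.44 without HN 1, and LF 2 and HN 1, with the highest muscle markers, were the high libraries of their diets. Of the 40 genes, 1 lay higher in HN without overlap (4.23% of all genes did) and 4 lay lower (5.61% did). The 1 higher was TSC2, the brake on mTOR complex 1, with 41.5, 35.8 and 41.5 CPM in LF and 54.8, 54.9 and 58.4 CPM in HN (0.50 ± 0.17). EIF4E, the cap-binding factor of translation, lay lower without overlap, with 115, 185 and 130 CPM in LF and 97.4, 78.9 and 89.5 CPM in HN. The list of growth factors and receptors of the pathway had a median of -0.13 (15 of 37 above 0).

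Respiratory chain genes of the mitochondrial genome and of the nucleus lay on opposite sides of 0. Of the 13 mitochondrially encoded subunits 11 had a log2 difference above 0, with a median of 0.46, and ND4, ND3 and CYTB lay higher without overlap (4.23% of all genes did). Their summed level overlapped between the diets, at 56609, 57881 and 72303 CPM in LF and 52948, 91831 and 68739 CPM in HN. HN 1 had the lowest sum of the 6 libraries. Of 21 nuclear subunits 20 lay below 0, with a median of -0.25, and 5 lay lower without overlap (5.61% of all genes did). Without HN 1, 7 of the 21 lay above 0 and the median was -0.10. ND4 had 1060, 1635 and 1066 CPM in LF and 1953, 2576 and 1684 CPM in HN. NDUFB5, a nuclear subunit of the same complex, had 67.9, 69.3 and 73.5 CPM in LF and 47.0, 49.5 and 52.8 CPM in HN (log2 difference -0.50 ± 0.15). Both medians kept their sign in all alternatives run, from 0.31 to 0.87 and from -0.49 to -0.07, though no member passed the adjusted threshold.

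Lists of interferon response, clock and redox state each had some members with non-overlapping groups. Higher in HN without overlap were 2 of 32 interferon-stimulated genes, 3 of 19 clock genes and 2 of 29 antioxidant and aryl hydrocarbon receptor genes, against 4.23% of all genes. Lower without overlap were 0, 1 and 2 genes of these lists in the same order, against 5.61% of all genes. Interferon-stimulated genes had a median of 0.41 (24 of 32 above 0), which was 0.02 with the ileum covariate and -0.09 with the smooth muscle covariate. IFIH1, the cytosolic sensor of double-stranded RNA, had 5.33, 7.90 and 4.67 CPM in LF and 11.5, 14.5 and 12.7 CPM in HN (log2 difference 1.12 ± 0.24). IFI44L had 33.5, 48.2 and 35.5 CPM in LF and 120, 74.0 and 49.6 CPM in HN. Clock genes had a median of 0.42 that was -0.15 without HN 1. NR1D1, the repressor REV-ERB alpha, had 19.8, 16.8 and 10.8 CPM in LF and 30.6, 36.2 and 26.2 CPM in HN, and its difference of 0.97 ± 0.35 was 0.98 without HN 1. NFIL3, which REV-ERB alpha is known to repress, had 17.7, 24.7 and 18.3 CPM in LF and 10.03, 13.5 and 12.7 CPM in HN. The labels give no time of sampling, so diet and hour of the day cannot be told apart. AHR, the receptor of indoles and other aryl ligands, had 23.6, 32.7 and 35.1 CPM in LF and 45.5, 74.5 and 41.4 CPM in HN. NFE2L2, the factor NRF2 of antioxidant genes, had 70.2, 114 and 86.0 CPM in LF and 137, 182 and 124 CPM in HN (0.72 ± 0.21). The list of their targets had a median of 0.35 (17 of 29 above 0), which was -0.22 without HN 3 and turned to -0.34 with the smooth muscle covariate.

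The remaining lists had medians between -0.44 and 0.46. Fibroblast and matrix genes had a median of -0.44 (1 of 20 above 0), and enteric neurons, glia and interstitial cells of Cajal -0.39 (2 of 17). These were -1.13 and -0.99 without HN 1, and both turned above 0 with the smooth muscle covariate. Only PDGFRA, the fibroblast receptor for platelet-derived growth factor, did not overlap among the 20 fibroblast and matrix genes, where 5.61% of all genes lay lower without overlap. It had 297, 277 and 328 CPM in LF and 256, 187 and 201 CPM in HN. Antigen presentation had a median of 0.37 (24 of 26), which was 0.80 without HN 1, -0.08 without HN 3 and -0.58 with the smooth muscle covariate. Enteroendocrine genes had 0.46 (9 of 13), with 1.017, -0.29 and -0.55 under the same changes. Cytokines and NF-kB response had 0.13 (20 of 25) and 0.36 without HN 1, and fatty acid oxidation 0.16 (16 of 23) and 0.25 without HN 1. DNA replication and mitosis had a median of -0.14 (13 of 30) that was 0.28 without HN 1. Only CENPE, a kinesin of the kinetochore, did not overlap among those 30 genes, where 4.23% of all genes lay higher without overlap. It had 1.52, 0.204 and 2.52 CPM in LF and 5.95, 4.98 and 4.91 CPM in HN. Immediate early genes had 10 of 20 above 0 (13 of 20 without HN 1), and heat shock and unfolded protein response genes a median of -0.20 (8 of 23). Steroid and prolactin receptors had a median of 0.29 (7 of 12), which changed sign to -0.03 without HN 1, -0.11 with the smooth muscle covariate and -0.51 with the ileum covariate. In the immediate early list KLF6 and EGR3 lay higher and IER3 and NR4A3 lower without overlap, 2 of 20 each way against 4.23% and 5.61% of all genes.

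The genes that lay higher in HN were longer than those that lay lower. The median length was 5616 bases for genes higher at an unadjusted p under 0.05 and 2404 bases for those lower, against 3731 bases for all tested genes. With a length trend removed from each library, edgeR again called 0 genes, and 1272 had an unadjusted p under 0.05. Of all 15075 tested genes, 293 were enriched in ileum. Among the 724 higher genes 44 belonged to these 293, and among the 624 lower genes 11 did. How many of the 44 rest on the HN library that had counts for ileum genes was not tested.

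The single additions gave no calls in colon either. HF against LF had 0 called and 3071 genes at an unadjusted p under 0.05 (20.4%), and LN against LF had 0 called and 2010 (13.3%), both by edgeR. All 3 comparisons share the LF libraries, so the values are given only side by side. For PPP1R9A the log2 differences from LF were 1.43 in HN, 0.54 in HF and 1.44 in LN. For MAP2K6 they were 1.67, 1.51 and 1.67, and for LCORL 1.71, 1.14 and 1.97. RCN1 gave -0.92, -0.56 and -0.66. For ANPEP the values were 2.74, 2.60 and 2.37, for MEP1B 2.86, 3.45 and 3.59, and for SI 3.97, 3.01 and 2.59. The colonocyte median was 0.82 in HN, 1.65 in HF and 0.85 in LN, and the smooth muscle median was -0.87, -4.99 and -1.33.

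Whether HN equals the sum of the single additions was tested as an interaction, (HN - HF) - (LN - LF). No gene was called by edgeR (smallest adjusted p 0.327), 2264 genes (15.0%) had an unadjusted p under 0.05, and without HN 1 there were 903. The smallest p went to UGCG, the enzyme of glucosylceramide synthesis, with 42.4, 36.5 and 47.8 CPM in LF and 52.6, 70.7 and 63.0 CPM in HN. Its log2 difference from LF was 0.56 in HN, 0.85 in HF and 1.07 in LN, an interaction of -1.37 ± 0.25 (-1.28 without HN 1). CD2AP, an adaptor that links membrane receptors to actin, had 26.5, 43.9 and 33.96 CPM in LF and 58.7, 120 and 83.2 CPM in HN. Its differences were 1.32 in HN, 1.39 in HF and 2.11 in LN, an interaction of -2.17 ± 0.42 (-1.97 without HN 1). The third gene, LOC110258110, lay at or below 1.29 CPM in all 6 libraries.

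The same contrast in the ileum, HN against LF, called 284 of 15103 genes (1.88%), of which 283 were higher (1.87%) and 1 lower (0.00662%). In the colon 282 of these 283 genes had a log2 difference above 0, against 53.9% of all colon genes, with a median of 0.72 against 0.05. None of them was called in colon, 22 (7.77%) lay higher without overlap against 4.23% of all genes, and 60 (21.2%) were higher at an unadjusted p under 0.05 against 4.80% of all genes. Without HN 1 the share above 0 was 83.7% and the median 0.39. Without LF 2 the median was 1.42, and without both LF 2 and HN 1, an alternative chosen after the data had been seen, it was 1.13. These genes had a median length of 7052 bases, and their colon median was 0.65 once each library's trend with length had been taken out. No label ties a colon library to an ileum library of the same animal. The ileum libraries behind the calls were uneven too. The 291 ileum genes described above summed to 44.2%, 63.7% and 51.3% of the ileum HF and LN mean in ileum LF 1 to LF 3. In ileum HN 1 to HN 3 they summed to 106%, 8.55% and 88.6%. The part of this unevenness in the ileum calls was not tested.

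**Figure D5:**
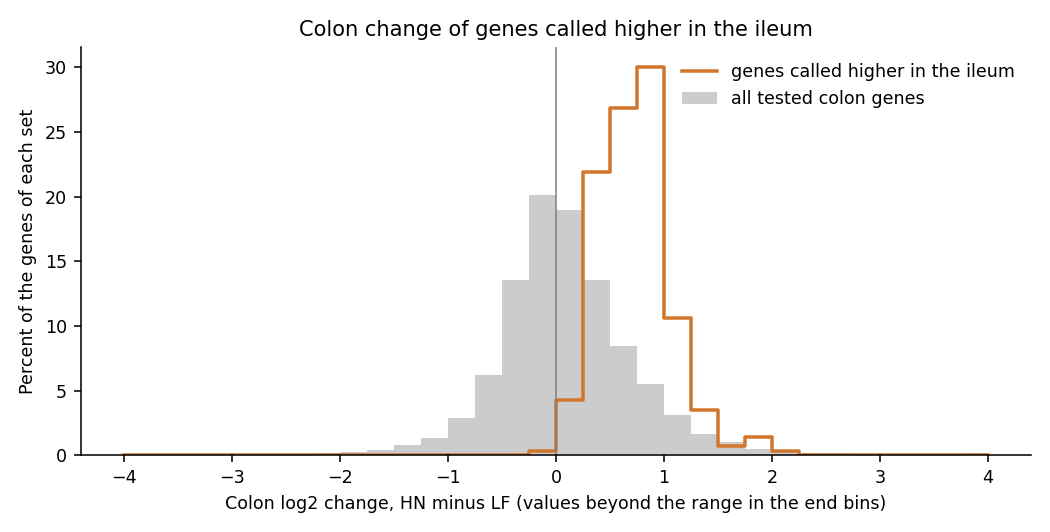
Share of genes (percent, vertical axis) by colon log2 difference, HN minus LF (horizontal axis, bins of 0.25), for the 283 genes called higher in the ileum (orange line) and all 15075 tested colon genes (grey). The orange distribution lies almost wholly above 0, with a median of 0.72, although no gene of it was called in colon.

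Of 10 ileum-called genes looked up by name, with the ileum results known, PGAP1 and PPIP5K2 did not overlap in colon and the other 8 did. PGAP1, which trims the lipid anchors of membrane proteins, had 18.9, 35.4 and 26.1 CPM in LF and 58.4, 104 and 57.6 CPM in HN, a colon log2 difference of 1.45 ± 0.31 against 2.11 in ileum. PPIP5K2, an inositol pyrophosphate kinase, had 8.42, 23.2 and 10.4 CPM in LF and 32.4, 42.6 and 29.6 CPM in HN, with 1.32 ± 0.35 in colon and 2.22 in ileum. LTN1, the ubiquitin ligase of stalled ribosomes, overlapped, with 11.95, 39.8 and 11.8 CPM in LF and 48.8, 37.1 and 22.0 CPM in HN. LF 2 and HN 1 were its highest libraries, and its colon difference was 0.77 ± 0.46. The difference between the tissues was tested over all 24 libraries. No gene was called by edgeR (0 of 15675, smallest adjusted p 1), 356 genes (2.27%) had an unadjusted p under 0.05, and without HN 1 there were 1213. The smallest p went to PPP1R3B, which brings protein phosphatase 1 to glycogen. It had 63.9, 61.0 and 58.0 CPM in colon LF and 99.5, 75.9 and 79.7 CPM in colon HN, a log2 difference of 0.48 in colon against -0.77 in ileum. GNL3, nucleostemin, gave -0.39 in colon and 0.63 in ileum, and GATA5 was tested only in the model of both tissues.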

How the data were processed

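Per the labels' protocols, poly(A) RNA was made into paired-end libraries. The submitters' processing notes name fastp 0.22.0, HISAT2 2.1.0, HTSeq 0.9.1 and the build Sscrofa11.1, with no settings, and strandedness is not given in the sources used here. The deposited table holds raw read counts per gene and library for 20674 genes, with no normalization by the authors. The authors' FPKM values, scaled by gene length and library total per the file headers, were not used. Another deposited unit, gene length in bases per the file headers, was used only for the length trend. Of the gene names 4137 are LOC numbers and 25 had turned into dates. Coordinates are the table's own, and 15070 of 15075 tested genes have the same start and end in RefSeq.

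The fits used edgeR 4.0.16 (R 4.3.3): filterByExpr, TMM scaling, 4 diet means over the 12 colon libraries (8 residual degrees of freedom), quasi-likelihood F-tests, and Benjamini-Hochberg adjustment over all tested genes with a threshold of 0.05. Log2 differences come from this fit, with SE = |log2 difference| divided by the square root of F. All 24 libraries entered a second model for the comparison of tissues. Code was tested on simulated data. CPM are TMM-normalised, with a prior count of 2 for log2 CPM. Total counts of 14843272 or more put the limit of 3 counts at 0.202 CPM or less per colon library, counting error only.

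Genes were named by rule: the 5 with the smallest p in each direction, the same without HN 1, the 5 each way with the widest gap between diets (CPM + 0.5), the 3 with the smallest p of the interaction and of the tissue difference, a panel (CPS1, OTC, ASS1, ARG2, NAGS, AKT1, PIK3CA), tissue checks, and up to 4 per list. List members with textbook roles are added as examples (DES, ADIPOQ, SLC16A1). The comparison and the 34 lists were chosen with earlier results of these data known, so lists carry no test. Alternatives were DESeq2 1.42.0, limma 3.58.1 voom, other scaling and filters, the 6 libraries alone, marker means as covariates, a length trend (lowess span 0.3) removed, a replicate block, and each library left out. A few genes the rule names are not reported here.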

Additional observations from a re-analysis of the deposited data

How the results depend on the processing

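DESeq2 was the only setting that changed the number of calls for HN against LF, from 0 to 191 (113 higher, 78 lower), and 29 of the 164 genes named or examined passed 0.05 there and in no other setting. The other settings kept 0 calls: RLE size factors, no filter on low counts, limma voom, the 6 libraries alone, both marker covariates, the length trend removed, and each of the 12 colon libraries left out (0 to 0). At an unadjusted p under 0.05 they ranged from 517 genes with the 6 libraries alone to 3527 without HN 1, with 674 under the ileum marker covariate and 2369 under the smooth muscle covariate. Leaving out HN 2 gave 633, leaving out LF 1 gave 933, and leaving out LF 2 and HN 1 together, chosen after seeing the data, gave 2768 with 0 calls. The cause of these moves was not tested.

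With the replicate number as a block, 0 genes were called and 1594 had an unadjusted p under 0.05. The deviations of same-numbered LF and HN libraries correlated at -0.132, -0.521 and 0.823, and LF 2 correlated best with HN 1 (0.821). Deviations from the mean of 3 libraries depend on each other, so these values cannot settle whether the numbers pair the samples.

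Interaction and tissue difference kept 0 calls in all settings run. With 3 libraries a side and a relative spread of 0.472, small differences were not detectable, and genes near 0.202 CPM have no usable fold.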
